A study of Homo sapiens with 4 samples.

Results

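The genes described here were 35 genes of the hypoxia pathway, taken by symbol from a table of 28729 genes measured by RNA sequencing (RNA-seq) in 4 libraries of TU-177, a cell line from laryngeal squamous cell carcinoma (LSCC). They comprised 3 subunits of the hypoxia-inducible factors (HIF), 5 genes of oxygen sensing and 27 genes known to be induced by hypoxia outside of glycolysis. The cells had received lentiviruses that carried either a negative control (NC, 2 libraries) or an shRNA directed against SKA3 (SKA3-KD, 2 libraries), and the puromycin-resistant cells were harvested. SKA3 encodes a component of the complex that stabilizes the attachment of kinetochores to microtubules in mitosis. All 4 libraries came from the same line in the same medium, no group was labelled as grown at low oxygen, and the labels do not say whether both SKA3-KD libraries carried the same shRNA or came from separate transductions.

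HIF is a transcription factor made of an alpha subunit (HIF1A or EPAS1) and a beta subunit (ARNT). When oxygen is present, prolyl hydroxylases of the EGLN family modify the alpha subunit, the VHL ubiquitin ligase then marks it for degradation, and HIF1AN hydroxylates it at another site that blocks its coactivators. At low oxygen these steps slow and HIF binds short sequences near genes for pH control, collagen modification, mitophagy, blood vessel growth, lipid storage and its own feedback. The control of the alpha subunits therefore lies largely in the protein, which an mRNA measurement does not show.

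HIF binding sites hold the letters ACGTG or GCGTG, and the promoters below are shown so that these letters can be seen in the members on which the results turn. Each is the 250 bases before the RefSeq start site on the strand of the gene, 5′ to 3′ in GRCh38.p14, with ACGTG or its reverse complement CACGT in capitals. Both overlap in CACGTG, which counts as 1 position. FAM162A (chr3:122383932-122384181, plus strand) and P4HA1 (chr10:73096867-73097116, minus strand) were lower in SKA3-KD at an adjusted p under 0.05, the threshold used throughout, and held ACGTG or CACGT. CA12 (chr15:63381847-63382096, minus strand) is shown as a gene that passed the threshold without ACGTG or CACGT, and it held the other core as CACGC, which is not in capitals. EPAS1, which was higher, also passed the threshold without ACGTG or CACGT and is not shown. CA9 (chr9:35673678-35673927, plus strand) and BNIP3 (chr10:131981924-131982173, minus strand) were added after their values were seen, as members that were lower in both SKA3-KD libraries without passing the threshold. Other such members with ACGTG or CACGT (PLOD2 and DDIT4 among them) and without (EGLN3 and STC2 among them) are not shown.
FAM162A: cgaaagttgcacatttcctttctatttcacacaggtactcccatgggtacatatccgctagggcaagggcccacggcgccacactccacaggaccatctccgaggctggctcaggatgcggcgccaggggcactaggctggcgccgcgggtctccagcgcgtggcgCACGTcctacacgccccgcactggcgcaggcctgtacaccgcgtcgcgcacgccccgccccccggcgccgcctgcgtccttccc
P4HA1: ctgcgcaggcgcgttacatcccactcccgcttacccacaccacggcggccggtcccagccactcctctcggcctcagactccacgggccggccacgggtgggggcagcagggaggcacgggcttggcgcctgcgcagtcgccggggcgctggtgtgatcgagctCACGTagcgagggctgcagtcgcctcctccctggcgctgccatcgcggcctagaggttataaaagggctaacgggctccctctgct
CA12: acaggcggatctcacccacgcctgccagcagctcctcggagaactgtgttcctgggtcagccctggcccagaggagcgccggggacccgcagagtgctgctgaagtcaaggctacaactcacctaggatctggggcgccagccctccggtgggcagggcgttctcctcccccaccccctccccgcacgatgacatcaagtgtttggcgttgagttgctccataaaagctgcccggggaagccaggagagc
CA9: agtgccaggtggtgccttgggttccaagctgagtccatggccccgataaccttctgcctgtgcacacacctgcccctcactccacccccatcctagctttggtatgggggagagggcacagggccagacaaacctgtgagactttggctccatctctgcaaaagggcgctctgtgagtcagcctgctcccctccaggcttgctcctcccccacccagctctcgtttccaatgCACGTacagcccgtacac
BNIP3: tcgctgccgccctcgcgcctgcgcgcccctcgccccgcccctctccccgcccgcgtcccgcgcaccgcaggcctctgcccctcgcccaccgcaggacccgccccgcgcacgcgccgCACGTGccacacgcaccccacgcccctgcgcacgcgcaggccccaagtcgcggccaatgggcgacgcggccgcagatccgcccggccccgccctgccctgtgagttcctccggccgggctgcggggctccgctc
The match began 84 bases before the start site in FAM162A, 86 in P4HA1, 18 in CA9 and 134 in BNIP3.

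Of the 29 members with a promoter entry, 15 (51.7%) held ACGTG or CACGT in these 250 bases. The share was 29.5% of the 8608 genes tested that had an entry and 21.7% of all 27305 genes with an entry. The members were chosen as known genes of this pathway, so their higher share is a description and not a test. VEGFA, HILPDA, NDRG1, ZNF395, VHL and BNIP3L were the members with no entry. The other core, GCGTG or its reverse complement CACGC, was in 55.2% of the members, 54.7% of the genes tested and 36.2% of all genes. The members' promoters had a median GC content of 68.4%, and those of the genes tested 65.2%. Among the members tested, the 14 with ACGTG or CACGT had a median log2 fold change of -0.25 between SKA3-KD and NC, and the 13 without had -0.23. These medians differed by less than the members spread among themselves, and a match is a description of the sequence, not a binding site.

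SKA3 itself was at 9.40 and 9.64 FPKM (a fragment count corrected for exon length and for the sequencing depth of each library) in the NC libraries, and the SKA3-KD libraries had 3.77 and 4.12. The groups did not overlap, the log2 fold change was -1.09 ± 0.07 (SE) and limma's adjusted p was 0.00806. The size of the libraries, read from the steps of the FPKM values, ran from 9015056 to 11966130 reads. Of 8 markers of squamous epithelium, 3 had a mean of at least 1 FPKM (KRT17, EPCAM and DSP), while KRT5, KRT14, KRT6A, TP63 and CDH1 were at most at 0.580 FPKM in any library. KRT17, a keratin, was at 45.6 and 49.1 FPKM in NC and fell to 29.4 and 35.7 in SKA3-KD (log2 fold change -0.53, limma adjusted p = 0.0396), while EPCAM and DSP had log2 fold changes of -0.04 and 0.02. The summed level of 7 fibroblast markers was 15.4 and 15.8 FPKM in NC and 8.89 and 9.59 in SKA3-KD, and DCN among them was at 8.40 and 8.36 FPKM in NC and 2.48 and 2.35 in SKA3-KD (log2 fold change -1.46, limma adjusted p = 0.0065). PDGFRB, another of the 3 fibroblast markers tested, went the other way at 2.88 and 2.46 FPKM in NC and 3.19 and 4.13 in SKA3-KD (log2 fold change 0.34, limma adjusted p = 0.165), and COL1A1, the last, was at 3.22 and 3.99 in NC and 2.71 and 2.66 in SKA3-KD. The sum of 5 immune markers did not pass 1.38 FPKM in any library and that of 3 endothelial markers did not pass 0.397. In such bulk samples, fewer cells of a kind and less RNA per cell cannot be told apart.

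To ask which members differed after the knockdown, the NC and SKA3-KD libraries were compared with limma on log2(FPKM + 1) over the 12645 genes with a mean of at least 1 FPKM, which compresses the change of genes at a low level. EGLN2, at 0.702 to 1.18 FPKM, and RORA, at 0.0808 to 0.129, were below that filter, so 33 of the 35 members were tested. At an adjusted p under 0.05, 4 of the 33 members were lower in SKA3-KD (CA12, FAM162A, P4HA1 and HILPDA), against 6.11% of all genes tested, and 1 was higher (EPAS1), against 6.16%. Both SKA3-KD libraries lay under both NC libraries for 20 of 33 members, against 29.2% of all genes tested, and over both for 3 (EPAS1, HIF1AN and KDM4B), against 32.3%. The log2 fold change was below 0 for 24 of 33 members, against 48.4% of all genes tested, its median over the members was -0.18, and that of all genes tested was 0.01. Without CA9, CA12, FAM162A and P4HA1, the 4 members with the largest change, the median of the other 29 was -0.15. With limma voom on the recovered reads, 15 of the 33 members were lower (12.3% of all genes) and 1 was higher (13.9%), the 5 called above among them. With either NC library left out of the main comparison, 0 genes of the table passed the threshold (3124 and 3352 genes had an unadjusted p under 0.05 without NC 1 and NC 2), so the loss of a call in these smaller fits says nothing of a single member. Without NC 1 and without NC 2, the log2 fold change was -1.28 and -1.27 for FAM162A and -1.28 and -1.30 for CA12.

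**Figure D1:**
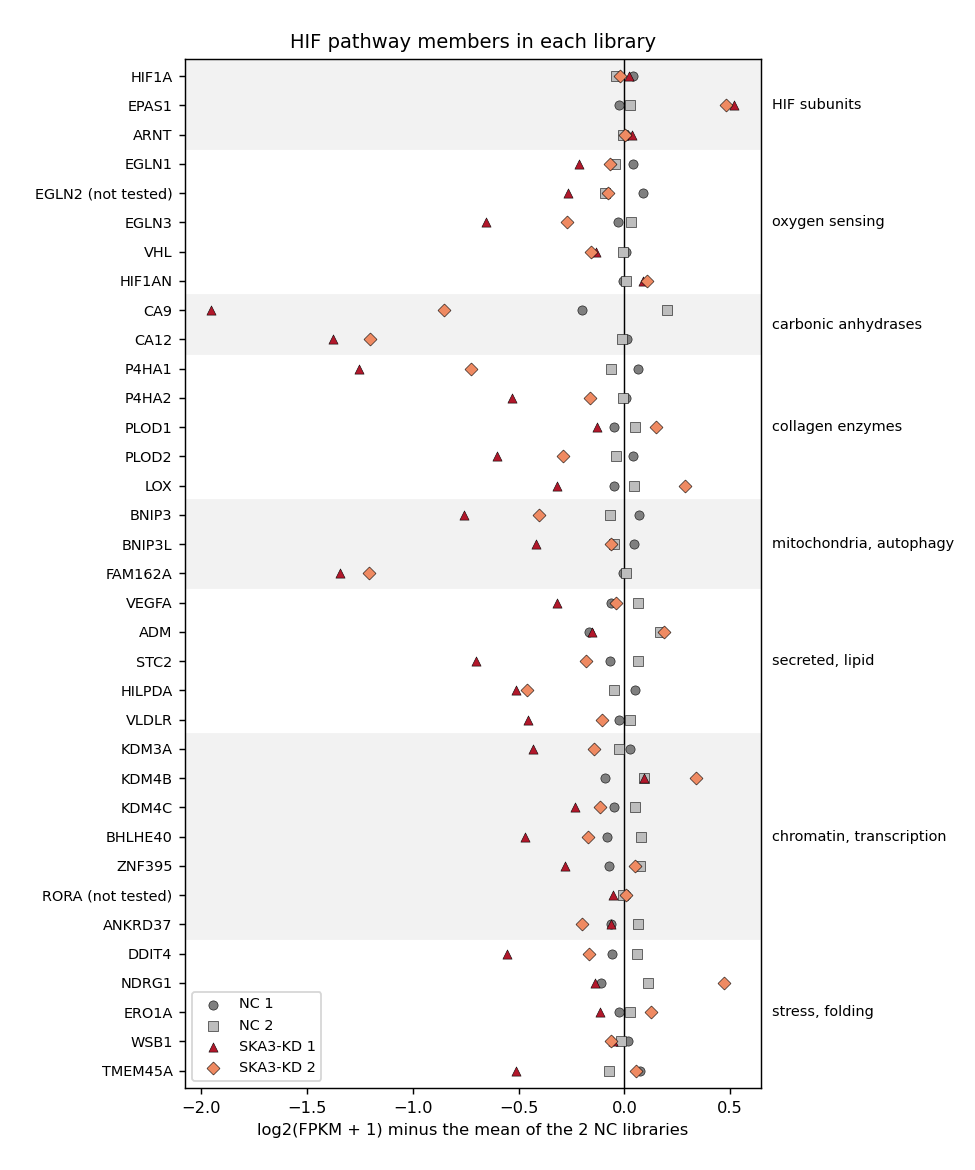
Each of the 35 members in the 4 libraries, as log2(FPKM + 1) minus the mean of the 2 NC libraries, grouped by role from the HIF subunits at the top to stress and folding genes at the bottom. The triangles (SKA3-KD 1) lie to the left of the diamonds (SKA3-KD 2) for most induced members, CA9, CA12, FAM162A and P4HA1 lie farthest to the left, and EPAS1 lies farthest to the right in SKA3-KD 1.

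The mRNA of EPAS1, which encodes the HIF-2 alpha subunit, rose in SKA3-KD. It was at 17.01 FPKM in NC 1 and 17.7 in NC 2, whereas SKA3-KD 1 had 25.3 and SKA3-KD 2 had 24.6. Both SKA3-KD libraries were above both NC libraries by far more than replicates differed, with means of 17.3 ± 0.465 (SD, n = 2) and 24.9 ± 0.502 (SD, n = 2). The log2 fold change was 0.50 ± 0.06 (SE; limma, adjusted p = 0.0158). With any single library left out, the log2 fold change stayed between 0.47 and 0.53, but the adjusted p lay between 0.0660 and 0.0902.

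HIF1A, the other alpha subunit, was at 17.6 and 16.5 FPKM in NC 1 and NC 2, and the SKA3-KD libraries had 17.3 and 16.8. The groups overlapped fully and the log2 fold change was 0.0010 ± 0.06 (SE; limma, adjusted p = 0.992). ARNT, the beta subunit, was at 12.4 and 12.3 FPKM in NC and 12.7 and 12.4 in SKA3-KD, also with overlap. In NC the alpha subunits were thus at nearly the same level per length, and in SKA3-KD EPAS1 stood above HIF1A in both libraries.

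Of the 4 oxygen-sensing genes tested, 0 passed the threshold in limma, where 6.11% of all genes tested were lower and 6.16% higher. At an unadjusted p under 0.05, 2 of them (EGLN3 and VHL) were lower, against 15.1% of all genes tested. EGLN1, the main HIF prolyl hydroxylase in most cells, was the most abundant of them at 43.3 and 40.8 FPKM in NC and 36.1 and 40.1 in SKA3-KD. EGLN3, a prolyl hydroxylase that is itself induced by HIF, was at 3.42 and 3.60 FPKM in NC and 1.87 and 2.74 in SKA3-KD. Both SKA3-KD libraries were lower in each case, but for EGLN3 the log2 fold change of -0.46 ± 0.15 (SE) had an adjusted p of 0.114.
VHL was at 25.4 and 25.1 FPKM in NC and 22.9 and 22.5 in SKA3-KD, a log2 fold change of -0.15 ± 0.06 (SE; limma, adjusted p = 0.157). HIF1AN was at 5.97 and 6.04 FPKM in NC and 6.45 and 6.56 in SKA3-KD (log2 fold change 0.10 ± 0.07, SE; limma, adjusted p = 0.375). The groups did not overlap for VHL or HIF1AN, and the differences were small. EGLN2, which was not tested, was at 1.18 and 0.928 FPKM in NC and 0.702 and 0.941 in SKA3-KD, with overlap.

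The members induced by hypoxia had a lower median than the subunits and sensors, a description with no test of the lists. The 26 induced members tested had a median log2 fold change of -0.26, and the 7 subunits and sensors tested had 0.0010. The 3 subunits alone had a median of 0.02 and the 4 sensors tested -0.14, with 3 of these 4 below 0. EGLN3, itself induced by HIF, was counted with the sensors. Of the induced members, 4 were lower and 0 higher at the threshold in limma, against 6.11% and 6.16% of all genes. At an unadjusted p under 0.05 in limma, 10 were lower and 0 higher, against 15.1% and 16.2%. The individual genes follow by role.

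The carbonic anhydrases CA12 and CA9 had the lowest log2 fold changes of the members, and CA12 passed the threshold. Both sit in the plasma membrane and turn carbon dioxide into bicarbonate and protons at the cell surface. CA12 was at 7.88 FPKM in NC 1 and 7.75 in NC 2, whereas SKA3-KD 1 had 2.39 and SKA3-KD 2 had 2.83. Each SKA3-KD library lay far under the NC libraries, which differed little, and SKA3-KD 1 was at 30.6% and SKA3-KD 2 at 36.2% of the NC mean. The log2 fold change was -1.29 ± 0.09 (SE; limma, adjusted p = 0.00812).
CA9 was at 12.5 FPKM in NC 1 and 16.8 in NC 2, whereas SKA3-KD 1 had 3.0 and SKA3-KD 2 had 7.57. The groups did not overlap either, but the SKA3-KD libraries stood further apart from each other than for any other member tested. The log2 fold change of -1.40 ± 0.37 (SE) did not pass the threshold (limma, adjusted p = 0.0736). Without SKA3-KD 2 the log2 fold change was -1.95 and passed the threshold with an adjusted p of 0.0322, and without SKA3-KD 1 it was -0.85 with an adjusted p of 0.1004. In GENCODE 29, 38.5% of the exon bases of CA9 lie under exons of ARHGEF39 on the opposite strand. ARHGEF39 was at 2.05 and 1.83 FPKM in NC and rose to 3.15 and 3.28 in SKA3-KD (log2 fold change 0.52; limma, adjusted p = 0.0392), and since use of strand in the counting is not given in the sources used here, reads of the shared bases cannot be told apart.

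Among the enzymes of collagen, P4HA1 fell and the 4 others did not pass the threshold. P4HA1, a catalytic subunit of the collagen prolyl 4-hydroxylase, was at 63.6 FPKM in NC 1 and 58.0 in NC 2, whereas SKA3-KD 1 had 24.9 and SKA3-KD 2 had 36.3. SKA3-KD 1 was at 41.0% and SKA3-KD 2 at 59.7% of the NC mean, with no overlap between groups. Its log2 fold change was -0.99 ± 0.18 (SE; limma, adjusted p = 0.0330). Without SKA3-KD 2 it passed with an adjusted p of 0.0313, and without SKA3-KD 1 it was -0.73 and lost the call with an adjusted p of 0.0602.
P4HA2, a relative of P4HA1, was at 8.93 and 8.83 FPKM in NC and 5.84 and 7.82 in SKA3-KD. PLOD2, a lysyl hydroxylase that acts on the ends of collagen chains, was at 14.9 and 14.1 FPKM in NC and 9.23 and 11.7 in SKA3-KD (log2 fold change -0.45 ± 0.12, SE; limma, adjusted p = 0.0712). Both had lower values in each SKA3-KD library than in either NC library. PLOD1, another lysyl hydroxylase, was at 53.4 and 57.3 FPKM in NC and 50.5 and 61.5 in SKA3-KD, so that the NC values lay between those of SKA3-KD. LOX, the secreted oxidase that crosslinks collagen and elastin, was at 5.24 FPKM in NC 1 and 5.66 in NC 2, whereas SKA3-KD 1 had 4.17 and SKA3-KD 2 had 6.85. SKA3-KD 1 was thus the lowest library and SKA3-KD 2 the highest, and the log2 fold change of the groups was -0.02 ± 0.20 (SE). The fibroblast marker DCN and the keratin KRT17 fell beside P4HA1, and their part in these values was not tested.

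FAM162A, a mitochondrial protein known to respond to hypoxia, had the smallest adjusted p of the members. It was at 25.5 FPKM in NC 1 and 25.7 in NC 2, whereas SKA3-KD 1 had 9.48 and SKA3-KD 2 had 10.5. Both pairs of libraries were tight, and SKA3-KD 1 and SKA3-KD 2 were at 37.0% and 41.0% of the NC mean. This gave a log2 fold change of -1.28 ± 0.07 (SE; limma, adjusted p = 0.0065). FAM162A and CA12 were the members that also passed the threshold with either SKA3-KD library left out. Without SKA3-KD 1 they were the 2 members called lower, against 0.419% of all genes, and 0 were higher in limma, against 0.103%. Without SKA3-KD 2, CA9 and P4HA1 joined them for 4 lower, against 1.07%, and 0 were higher, against 0.364% (at an unadjusted p under 0.05, 3 members were higher without SKA3-KD 1 and 1 without SKA3-KD 2).
BNIP3 and BNIP3L are receptors on the outer mitochondrial membrane that mark mitochondria for autophagy. BNIP3 was at 66.3 and 60.1 FPKM in NC and 37.0 and 47.4 in SKA3-KD, without overlap (log2 fold change -0.58 ± 0.13, SE; limma, adjusted p = 0.0508). BNIP3L was at 54.0 and 50.5 FPKM in NC and 38.8 and 49.9 in SKA3-KD. SKA3-KD 2 was just under NC 2 for BNIP3L, whose log2 fold change of -0.24 had an adjusted p of 0.265 in limma. The genome holds many processed copies of BNIP3, and how the counting split reads among them is not given in the sources used here, so its level is uncertain.

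Of the genes for secreted factors and lipid handling, HILPDA fell. HILPDA is a lipid droplet protein that inhibits triglyceride breakdown. It was at 11.2 FPKM in NC 1 and 10.4 in NC 2, whereas SKA3-KD 1 had 7.26 and SKA3-KD 2 had 7.58. The groups did not overlap, and the SKA3-KD libraries were at 67.3% and 70.2% of the NC mean. The log2 fold change was -0.49 ± 0.07 (SE; limma, adjusted p = 0.0226), and with any single library left out the adjusted p lay between 0.0734 and 0.107. Other annotated genes on the same strand share 13.2% of its exon bases.
VEGFA, the growth factor of blood vessels, was at 7.13 and 7.87 FPKM in NC and 5.81 and 7.27 in SKA3-KD, with overlap. STC2, a secreted glycoprotein, was at 9.71 and 10.7 FPKM in NC and 5.88 and 8.88 in SKA3-KD. VLDLR, a lipoprotein receptor, was at 1.86 and 1.97 FPKM in NC and 1.13 and 1.71 in SKA3-KD. STC2 and VLDLR were lower in both SKA3-KD libraries, and SKA3-KD 1 made up most of the difference. ADM, a vasodilator peptide, was at 12.5 FPKM in NC 1 and 16.0 in NC 2, whereas SKA3-KD 1 had 12.6 and SKA3-KD 2 had 16.2. The pairs of ADM coincided, with the libraries numbered 1 below those numbered 2 in both groups, and the log2 fold change was 0.02 ± 0.16 (SE).

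Of the 6 regulators of chromatin and transcription tested, 0 passed the threshold in limma, where 6.11% of all genes tested were lower and 6.16% higher. At an unadjusted p under 0.05, 1 of them (BHLHE40) was lower, near the 15.1% of all genes tested. BHLHE40, a transcriptional repressor of the circadian and hypoxic response, was the most abundant of them at 48.4 and 54.2 FPKM in NC and 36.6 and 45.3 in SKA3-KD. KDM3A, a histone H3K9 demethylase, was at 5.85 and 5.59 FPKM in NC and 3.97 and 5.09 in SKA3-KD, and KDM4C, of another family of H3K9 demethylases, at 1.77 and 1.97 in NC and 1.44 and 1.65 in SKA3-KD. Both SKA3-KD libraries were lower than both NC libraries for each of these genes. KDM4B, a relative of KDM4C, went the other way at 6.57 and 7.59 FPKM in NC and 7.60 and 9.20 in SKA3-KD, a log2 fold change of 0.22 ± 0.12 (SE; limma, adjusted p = 0.272). ZNF395, a zinc finger protein, was at 3.29 to 4.48 FPKM and ANKRD37, an ankyrin repeat protein, at 1.08 to 1.505 FPKM over the 4 libraries. ANKRD37 rested on 33 to 40 reads a library, the fewest of the members tested, and 35.2% of its exon bases lie under UFSP2 on the opposite strand, while ZNF395 shares 34.9% of its exon bases with FBXO16 on its own strand (FBXO16 was at 0.0742 to 0.231 FPKM).

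Of the 5 genes of stress response and protein folding, 0 passed the threshold in limma, where 6.11% of all genes tested were lower and 6.16% higher. At an unadjusted p under 0.05, 1 of them (DDIT4) was lower, near the 15.1% of all genes tested. DDIT4, an inhibitor of mTORC1 signalling, had the highest NC mean of all members at 78.2 and 84.8 FPKM and was at 55.1 and 72.3 in SKA3-KD (log2 fold change -0.36 ± 0.14, SE; limma, adjusted p = 0.150). An antisense gene on the opposite strand covers 41.2% of its exon bases and was not analysed here. NDRG1, a stress-responsive protein of differentiation, was at 72.0 FPKM in NC 1 and 84.0 in NC 2, whereas SKA3-KD 1 had 70.5 and SKA3-KD 2 had 108. SKA3-KD 1 was slightly below NC 1, while SKA3-KD 2 was above all others, and the log2 fold change of the groups was 0.17 ± 0.21 (SE). ERO1A, the oxidase that supports disulfide formation in the endoplasmic reticulum, was at 11.4 to 13.6 FPKM, WSB1, a substrate receptor of a ubiquitin ligase, at 10.7 to 11.4 FPKM, and TMEM45A, a membrane protein, at 6.15 to 9.74 FPKM. For TMEM45A, SKA3-KD 1 was the lowest library and SKA3-KD 2 lay between the NC libraries.

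**Figure D2:**
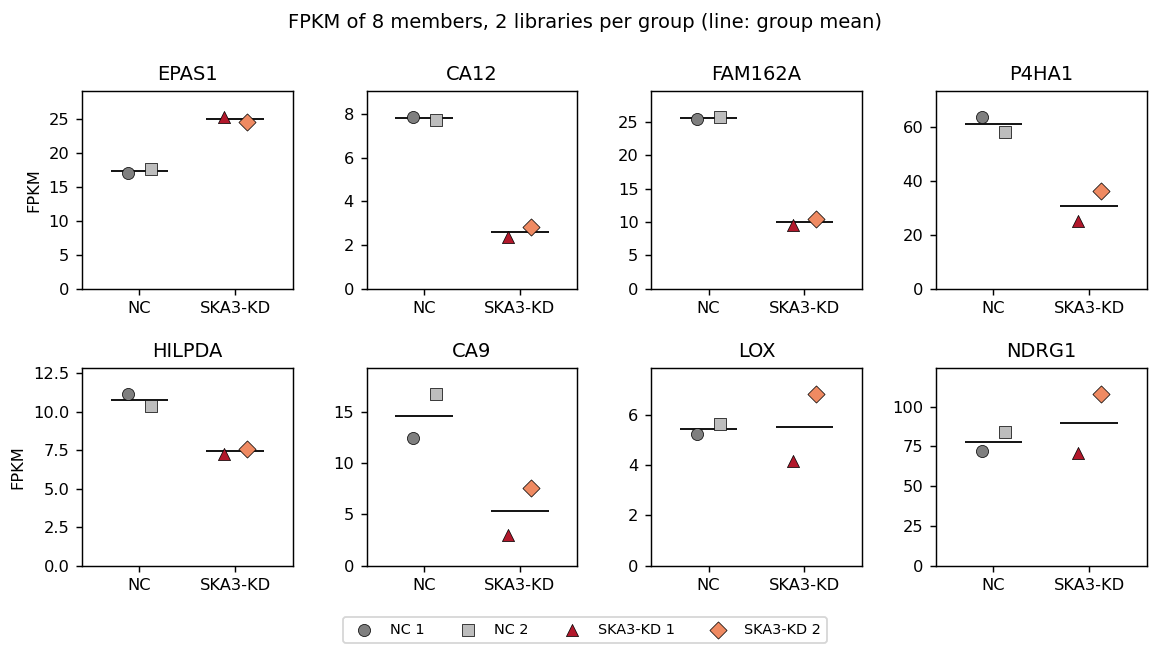
FPKM of 8 members in the NC and SKA3-KD libraries, with a line at the mean of each group and the y axis from 0. The groups are apart for EPAS1, CA12, FAM162A, P4HA1, HILPDA and CA9, whereas for LOX and NDRG1 the SKA3-KD libraries lie on either side of the NC mean.

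The SKA3-KD libraries were next compared with each other. These are single libraries, so no test applies, and the intervals given below cover counting error only, on reads recovered from the FPKM values. SKA3-KD 1 was lower than SKA3-KD 2 for 27 of the 33 members tested, against 49.2% of all genes tested, and NC 1 was lower than NC 2 for 19 of 33, against 47.5%. On log2(FPKM + 1), SKA3-KD 2 was at least 25% above SKA3-KD 1 for 14 members (5.71% of all genes), and SKA3-KD 1 at least 25% above SKA3-KD 2 for 0 (4.31%), whereas the NC libraries were that far apart, in either direction, for 2 members, CA9 and ADM (10.2%). At 1.5 times on the same scale, CA9, LOX and NDRG1 were lower in SKA3-KD 1 (3 members, 2.33% of all genes), 0 were higher (1.8%), and 0 members were that far apart between the NC libraries (3.91%). The median difference between the SKA3-KD libraries was -0.29 on the log2 scale for the members and 0.0026 for all genes tested, and the median difference between the NC libraries was -0.05 for the members. SKA3-KD 1 also had the smaller library, at 10177854 reads beside 11793604, and the part of depth in this split was not tested.

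As a ratio of FPKM, SKA3-KD 1 to SKA3-KD 2 was 0.397 for CA9 (95% counting interval 0.283 to 0.548, on 51 and 149 reads). It was 0.608 for LOX (0.517 to 0.715), 0.652 for NDRG1 (0.633 to 0.672) and 0.639 for TMEM45A (0.562 to 0.726). For STC2 it was 0.662 (0.581 to 0.754), for VLDLR 0.660 (0.515 to 0.841) and for EGLN3 0.682 (0.549 to 0.843). These members thus differed between the SKA3-KD libraries by more than counting error. Over the 33 members, the interval lay below 1 for 22, above 1 for 0 and spanned 1 for 11, while for NC 1 to NC 2 it lay below 1 for 8, above 1 for 4 and spanned 1 for 21. Intervals were made for the members only, so no share over all genes stands beside these counts. Genes across the table also differed within each pair by more than sampling noise (chi-square per degree of freedom 3.58 for SKA3-KD and 3.61 for NC).
Of the members called lower, 3 had intervals of this ratio that spanned 1. The ratio was 0.902 for FAM162A (0.785 to 1.04), 0.845 for CA12 (0.693 to 1.03) and 0.958 for HILPDA (0.768 to 1.19). P4HA1 was the exception with 0.686 (0.628 to 0.749). The ratios of EPAS1, 1.03 (0.966 to 1.10), and HIF1A, 1.03 (0.940 to 1.13), also spanned 1. SKA3 itself was at 39.6% of the NC mean in SKA3-KD 1 and 43.2% in SKA3-KD 2.

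**Figure D3:**
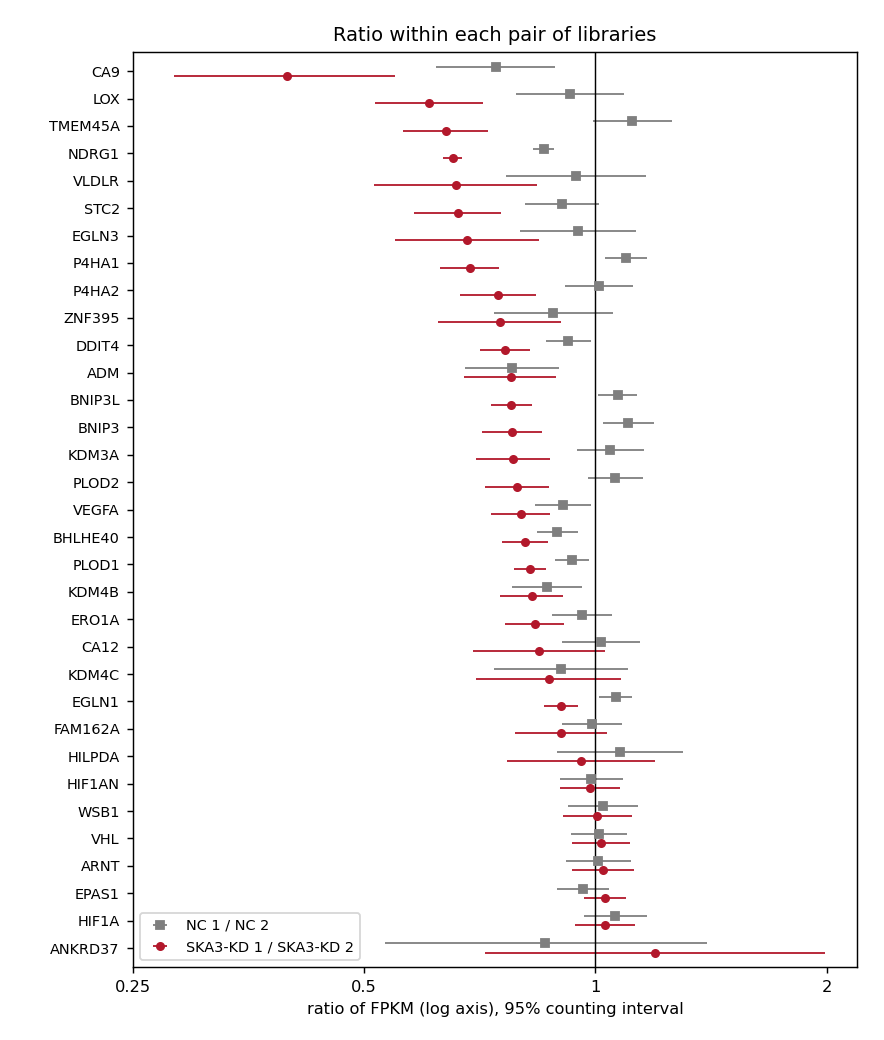
Ratio of FPKM within the SKA3-KD pair (circles) and within the NC pair (squares) for the 33 members tested, with 95% counting intervals on a log axis, sorted by the SKA3-KD ratio with CA9 at the top. The circles lie left of 1 for 27 members, and those of the HIF subunits, VHL, WSB1 and HIF1AN lie at or near 1.

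Taken against the NC mean, SKA3-KD 1 had a median log2 difference of -0.32 over the members and SKA3-KD 2 of -0.11, where all genes tested had 0.01 in both. SKA3-KD 1 was below both NC libraries for 27 of 33 members (38.4% of all genes) and SKA3-KD 2 for 20 (38.2%). They were above both for 4 and 8 members, against 41.6% of all genes for each library. For the 26 induced members SKA3-KD 1 had a median of -0.44 and SKA3-KD 2 of -0.13, and SKA3-KD 1 was the lower library for 24 of them. For the 7 subunits and sensors the medians were 0.02 and -0.02, and for the 4 sensors among them -0.17 and -0.11. Both differences share the NC libraries, so they are given side by side and are not independent of each other.

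**Figure D4:**
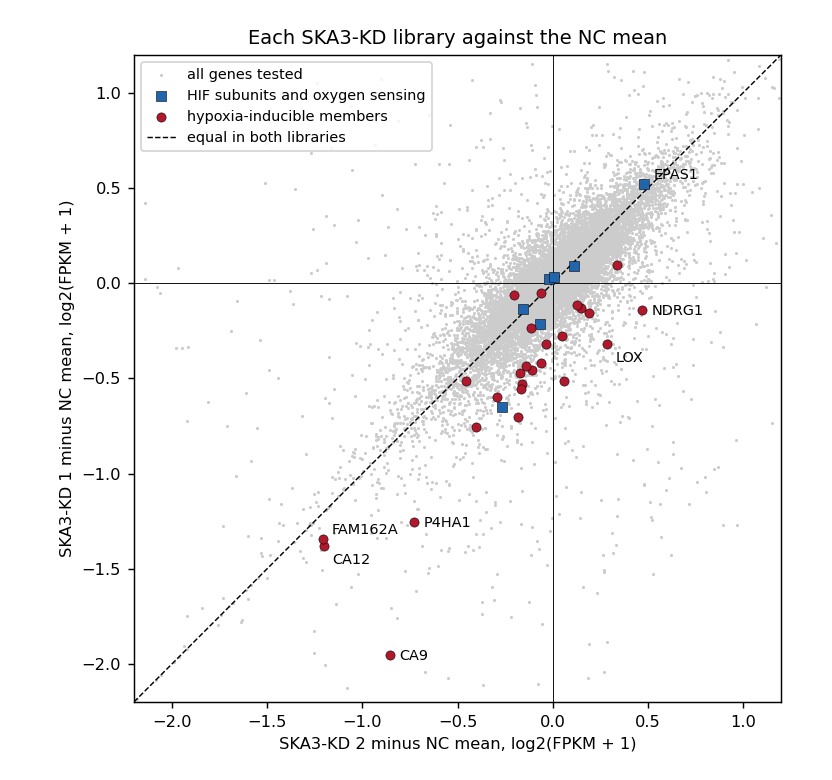
Difference of SKA3-KD 1 (y axis) and of SKA3-KD 2 (x axis) from the NC mean on log2(FPKM + 1) for the 12645 genes tested (grey, 100 of them outside the plotted range) and the 33 members. Most induced members (circles) lie under the dashed line of equal values, with CA9, P4HA1, LOX and NDRG1 far from it and CA12 and FAM162A close to it, and the HIF subunits (among the squares) lie on it.

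The rest of the pathway was described with further lists. Of 14 genes that act on HIF besides the members (partners, degradation factors and coactivators), 11 were tested. At an unadjusted p under 0.05 in limma, 2 were lower and 2 higher, against 15.1% and 16.2% of all genes tested. At the threshold 0 were lower, against 6.11%, and 1 was higher, against 6.16%. This was CITED2, which competes with HIF for its coactivators, at 24.6 and 26.6 FPKM in NC and 35.1 and 38.6 in SKA3-KD (log2 fold change 0.51 ± 0.08, SE; limma, adjusted p = 0.0237). HIF3A and ARNT2, the alternative subunits, were at most at 0.0876 FPKM in any library.

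Of 27 other hypoxia-inducible genes tested, 5 were lower and 1 was higher in SKA3-KD at the threshold in limma. The shares of all genes tested were 6.11% lower and 6.16% higher. The median log2 fold change of these 27 genes was -0.17. HMOX1, the heme-degrading oxygenase, was at 6.74 and 8.81 FPKM in NC and 1.88 and 3.17 in SKA3-KD, a log2 fold change of -1.33 ± 0.21 (SE; adjusted p = 0.0262). INSIG2, which retains the sterol-sensing complex in the endoplasmic reticulum, fell by 0.49 on the log2 scale, KDM5B, a histone H3K4 demethylase, by 0.46, NFIL3, a transcriptional repressor, by 0.39 and RAB20, a small GTPase, by 0.37 (adjusted p from 0.0224 to 0.0454). ANGPTL4, an inhibitor of lipoprotein lipase, went against the list at 3.10 and 2.95 FPKM in NC and 5.50 and 8.44 in SKA3-KD (log2 fold change 0.96 ± 0.18, SE; adjusted p = 0.0374).

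Of 19 glycolytic HIF targets, 1 was lower at the threshold, against 6.11% of all genes tested, and 0 were higher, against 6.16%. At an unadjusted p under 0.05 in limma, 6 were lower and 2 (PFKP and PFKFB3) were higher, against 15.1% and 16.2%. The gene past the threshold was PFKFB4, a kinase and phosphatase that sets the level of an activator of glycolysis. It was at 6.36 and 7.32 FPKM in NC and 3.59 and 4.73 in SKA3-KD (log2 fold change -0.61; limma, adjusted p = 0.0494). The split between the SKA3-KD libraries also appeared in these lists. They were chosen with earlier results known and read in the same libraries, so they are not independent of the members. SKA3-KD 1 was lower than SKA3-KD 2 for 18 of the 19 glycolytic genes, with a median difference of -0.26 on the log2 scale. It was lower for 24 of the 27 other hypoxia-inducible genes, with a median of -0.18. Over all genes tested it was lower for 49.2%, with a median of 0.0026. For the 11 genes that act on HIF, the median was -0.03 and SKA3-KD 1 was lower for 7. NC 1 was lower than NC 2 for 14 of the 19 glycolytic genes and 18 of the 27 other hypoxia-inducible genes, with medians of -0.06 and -0.02. Over all genes tested, NC 1 was lower for 47.5%.

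**Figure D5:**
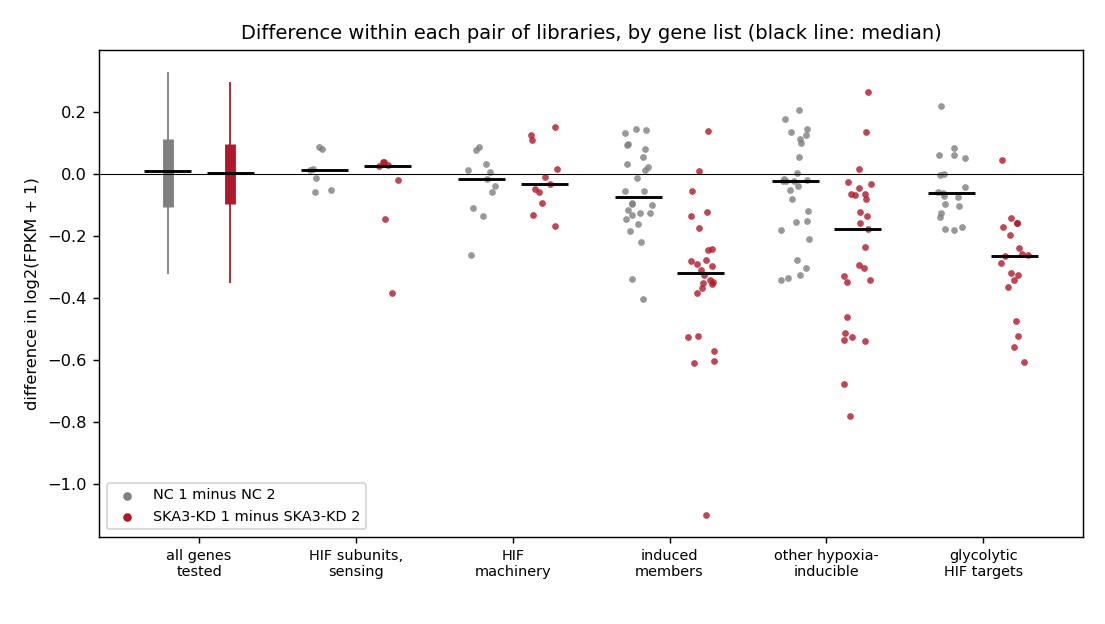
Difference in log2(FPKM + 1) within the NC pair (grey) and within the SKA3-KD pair (red), by gene list. Each point is a gene and a black line marks the median. For all genes tested a thick bar spans the interquartile range and a thin line the 5th to the 95th percentile. The red points lie mostly under 0 for the induced members, the other hypoxia-inducible genes and the glycolytic HIF targets. Their medians are -0.32, -0.18 and -0.26. The red median is 0.02 for the subunits and sensors together and -0.03 for the machinery. For the sensors alone it is -0.08, with EGLN3 at -0.38.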

How the data were processed

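The authors deposited 1 table of FPKM values for the 4 libraries, normalized to exon length and to the mapped fragments of each library. Their processing notes name the build hg19 and the tools Bowtie2 2.2.8, HISAT2, StringTie 1.3.1 and Cuffdiff 2.1.1. The annotation, the counter and the use of strand are not given in the sources used here. Of 28729 gene identifiers, 27199 matched GENCODE 29, from which symbols, lengths and overlaps were taken. No coordinates of the table were used.

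The members and lists were chosen with earlier results of these data known. All members were named, with values in every library for those past the threshold or at least 1.5 times apart between the SKA3-KD libraries, and every gene of the other lists past the threshold was named. Promoters were shown for members past the threshold that held the searched letters outside chromosome 8, with the additions stated where they appear. Groups were compared with limma 3.58.1 (R 4.3.3, trend) on log2(FPKM + 1) for the 12645 genes with a mean of at least 1 FPKM, with Benjamini-Hochberg adjustment and a threshold of 0.05. The labels do not say that replicates came from separate cultures, so p-values measure the spread between these libraries, which may be technical. Within each group the libraries differed by more than sampling noise (chi-square per degree of freedom 3.61 for NC and 3.58 for SKA3-KD).

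FPKM values are whole multiples of the value of 1 read for a gene, and whole reads (tolerance 0.01) were recovered for 61.3% of the genes tested from the GENCODE length and for 38.7% from the proportions between libraries, where a shared factor could be missed. Depth was 11966130 (NC 1), 9015056 (NC 2), 10177854 (SKA3-KD 1) and 11793604 reads (SKA3-KD 2). The recovered reads summed to between 102.2% (NC 2) and 103.8% (SKA3-KD 1) of these sizes, so both are approximate. The cause of this excess was not tested. The 95% intervals are exact and cover counting error only. On data simulated for SKA3-KD against NC (12455 genes, 200 changed by 1 on the log2 scale), limma recovered 167 and made 15 false calls. The changed genes were drawn from well-covered genes, all genes had the same fixed dispersion, and the change was larger than that of most members. The share recovered therefore does not carry over to the members. Alternatives changed the pseudocount, filter, scaling, variance model, pairing and libraries used. RefSeq promoters (GRCh38.p14) were searched on both strands. Python 3.11.15 (numpy 2.4.6, pandas 2.3.3, scipy 1.17.1, matplotlib 3.10.9) was used for the rest. A further marker of squamous epithelium is not reported here.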

Additional observations from a re-analysis of the deposited data

How the results depend on the processing

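In limma on log2(FPKM + 1), 4 members were lower and 1 higher, with 772 genes lower and 779 higher over all and 6 lower and 2 higher among the other genes of the pathway. With no filter these became 2 and 0 (8 and 1 at an unadjusted p under 0.05), 81 and 48, and 0 and 0. At a mean FPKM of at least 5, 7 of the 28 members tested were lower and EPAS1 was higher. Among the other genes, 11 were lower and 4 higher. At an unadjusted p under 0.05 in that setting, 12 members were lower and 1 higher, against 1379 and 1582 of 7303 genes. Without a trend, the members CA12, FAM162A and HILPDA were lower and EPAS1 was higher. Over all genes 381 were then lower and 312 higher, with 1 and 0 among the other genes. With limma voom on recovered reads, 15 members were lower, 1561 genes lower and 1760 higher, with 20 and 9 among the other genes. CA12 and FAM162A passed the threshold in each of these settings, and EPAS1 in all but that with no filter.

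The replicate block gave 6 lower and 1 higher member, 965 and 1002 genes, and 8 and 4 of the other genes. The numbers did not pair the libraries by any label, and the differences within the pairs correlated at 0.0973 across genes, so the block was not used.

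Leaving out each library in turn (the lone sample is assumed to vary like the others) gave 0 to 4 members lower and 0 higher, 0 to 135 genes lower and 0 to 46 higher, 0 to 3 and 0 to 1 of the other genes, and a median of the members from -0.32 to -0.11. These fits hold fewer samples. Without NC 1, 3124 genes had an unadjusted p under 0.05, 6 members lower and 1 higher, and without NC 2, 3352 genes, again 6 and 1.

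The direction of the members named here depended on the scaling or the library left out. Most were near 0 in the main fit, but TMEM45A was at -0.23 and NDRG1 at 0.17. HIF1A was at -0.011 with median-of-ratios scaling, -0.028 with quantile normalization and -0.0024 with voom. PLOD1 was at -0.0032 and -0.0019 with these scalings and ERO1A at -0.0082 with the first. With single libraries left out, HIF1A ranged from -0.040 to 0.042, PLOD1 from -0.13 to 0.15, ADM from -0.16 to 0.19, ERO1A from -0.12 to 0.13, LOX from -0.32 to 0.28, ZNF395 from -0.28 to 0.049, TMEM45A from -0.51 to 0.057 and NDRG1 from -0.14 to 0.47. Except for HIF1A, the highest value of each range came without SKA3-KD 1 and the lowest without SKA3-KD 2. The cause was not tested. Of the other member values, 366 kept their direction and side of the threshold, 19 passed it and 20 no longer did.

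Members at least 1.5 times apart between the SKA3-KD libraries numbered 3, 5 with a pseudocount of 0.1, 14 at a difference of 25%, and 6 as a ratio without a pseudocount, a setting chosen after seeing the data. SKA3-KD 1 was the lower library for 27 of the 33 members tested in each of these.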
